A study of Mus musculus with 2 samples.

Results

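Imprinted genes are expressed mainly from the copy inherited from the mother or from the copy inherited from the father. The group described here held 37 known mouse imprinted genes, named by symbol, of 54680 loci in the expression table, and each of the 37 was found as a single locus. Of these, 17 lie on chromosome 7. Their RNA levels come from RNA sequencing of CT26, a line derived from a mouse colon carcinoma. In the knockdown group the cells were infected with a lentivirus that carried a short hairpin RNA directed at Setdb1, and in the control group with a lentivirus that carried the empty knockdown vector, labelled shCtrl and wild type in genotype. Both cultures were grown in RPMI medium with serum and collected after 6 days, when the knockdown cells had changed in phenotype, per the labels. The title of the knockdown library calls its cells differentiated, so the knockdown and this state cannot be told apart in the values below. There was 1 library in each of the 2 groups, so no test between conditions was possible and the differences below describe these libraries, called control cells and knockdown cells. The labels do not say whether the cells were clones or pools, or how many hairpins were used. Allele of origin was not measured, so every value below is the sum of both parental copies.

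At imprinted loci, DNA methylation set in the egg or the sperm marks a control region, and the mark is kept on that parental copy for life. In early embryos the zinc finger proteins ZFP57 and ZFP445 bind methylated control regions and recruit TRIM28, which in turn brings SETDB1, the methyltransferase that places trimethyl groups on lysine 9 of histone H3. Many imprinted genes act on growth before birth, on placental function or on the brain, and several lie in clusters where a long noncoding RNA is read from the paternal copy while its protein-coding neighbours are read from the maternal copy.

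Whole reads were recovered for 100% of the values above 0. The totals were 18421604 reads in control cells and 19045830 in knockdown cells. Setdb1 had 1340 reads (10.4 FPKM) in control and 317 reads (2.47 FPKM) in knockdown cells, in the direction of its label. FPKM stands for fragment counts divided by gene length and sequencing depth. Of all loci, 10671 reached 1 FPKM in at least 1 library. The epithelial markers Epcam and Cdh1 had 0 reads in both libraries, although the labels name a colon cancer line, while all 4 mesenchymal markers reached 1 FPKM. Of these, Vim was at 752 and 835 FPKM and Pdgfrb at 13.5 and 14.6, whereas Col1a1 went from 32.1 to 24.0 and Col3a1 from 2.68 to 0.887. Summed reads of 9 colon epithelial markers were 1241 in control cells and 3817 in knockdown cells. Most came from Krt18 (1016 and 2423 reads) and Krt20 (183 and 1285 reads). Both were at least 2-fold higher on the log2(FPKM + 1) scale. So was Krt19 (1 and 53 reads), which passed 1 FPKM only through the knockdown library. Vil1 (1 and 7 reads), Cdx2 (5 and 18), Krt8 (7 and 8) and Lgals4 (28 and 23) stayed under 1 FPKM. Of 4 immune markers, the macrophage-linked Cd68 went from 245 to 2360 reads, while Ptprc had 0 and 4 reads, Cd79a had 5 and 3, and Cd3e had 0. Of 4 neural markers, Tubb3 went from 155 to 262 reads, Gfap had 2 and 5, and Rbfox3 and Sox10 had 0. The endothelial markers Pecam1 and Cdh5 had 0 reads in both libraries. The part of these shifts in the values below was not tested.

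Promoters of 6 of the genes are printed first, because they show the sequence at genes on either side of the expression range. Slc22a18, Tssc4 and Zrsr1 were expressed, Nnat was near the lower limit, and Nap1l5 and Plagl1 had no reads. The sequences are RefSeq promoters from GRCm38.p6, from 250 bases before to 50 bases after the start, written along the gene's strand. Capitals mark TGCCGC on either strand (its complement reads GCGGCA), the core that ZFP57 is known to bind when its CpG is methylated. The windows are chr7:143473539-143473838 on the plus strand for Slc22a18, chr7:143069118-143069417 on the plus strand for Tssc4, chr11:22971755-22972054 on the plus strand for Zrsr1, chr2:157559828-157560127 on the plus strand for Nnat, chr6:58907077-58907376 on the minus strand for Nap1l5, and chr10:13090582-13090881 on the plus strand for Plagl1. The Nap1l5 window is set by the RefSeq start and lies just upstream of the gene model in the table, so its last 50 bases are in no GENCODE M21 transcript of the gene; the other 5 starts lie within one.
Slc22a18: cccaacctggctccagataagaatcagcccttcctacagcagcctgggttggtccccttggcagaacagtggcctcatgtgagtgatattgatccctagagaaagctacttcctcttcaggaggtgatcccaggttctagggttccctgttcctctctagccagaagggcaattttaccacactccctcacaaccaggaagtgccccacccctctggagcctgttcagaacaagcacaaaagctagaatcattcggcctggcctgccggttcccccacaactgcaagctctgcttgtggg
Tssc4: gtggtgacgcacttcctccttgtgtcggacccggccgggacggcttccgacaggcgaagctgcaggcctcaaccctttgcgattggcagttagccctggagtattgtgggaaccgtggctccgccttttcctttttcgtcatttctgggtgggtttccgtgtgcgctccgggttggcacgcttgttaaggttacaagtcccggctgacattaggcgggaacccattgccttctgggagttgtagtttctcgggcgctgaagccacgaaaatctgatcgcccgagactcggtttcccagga
Zrsr1: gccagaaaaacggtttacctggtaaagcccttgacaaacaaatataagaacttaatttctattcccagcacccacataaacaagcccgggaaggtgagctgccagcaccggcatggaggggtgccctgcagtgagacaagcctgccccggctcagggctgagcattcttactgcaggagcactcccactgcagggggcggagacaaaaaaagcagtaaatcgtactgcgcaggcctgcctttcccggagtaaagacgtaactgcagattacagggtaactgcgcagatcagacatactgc
Nnat: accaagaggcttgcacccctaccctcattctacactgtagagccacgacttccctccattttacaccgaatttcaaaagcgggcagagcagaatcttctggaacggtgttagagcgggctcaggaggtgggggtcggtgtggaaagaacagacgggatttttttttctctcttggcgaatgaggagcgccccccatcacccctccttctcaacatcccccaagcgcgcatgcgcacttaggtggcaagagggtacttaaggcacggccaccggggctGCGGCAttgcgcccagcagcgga
Nap1l5: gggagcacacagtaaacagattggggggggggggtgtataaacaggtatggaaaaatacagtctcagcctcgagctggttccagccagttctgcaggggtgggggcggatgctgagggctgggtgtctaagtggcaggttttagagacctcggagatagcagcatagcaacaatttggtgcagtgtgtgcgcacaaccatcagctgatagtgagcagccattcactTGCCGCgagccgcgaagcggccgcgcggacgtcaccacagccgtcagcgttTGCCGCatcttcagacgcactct
Plagl1: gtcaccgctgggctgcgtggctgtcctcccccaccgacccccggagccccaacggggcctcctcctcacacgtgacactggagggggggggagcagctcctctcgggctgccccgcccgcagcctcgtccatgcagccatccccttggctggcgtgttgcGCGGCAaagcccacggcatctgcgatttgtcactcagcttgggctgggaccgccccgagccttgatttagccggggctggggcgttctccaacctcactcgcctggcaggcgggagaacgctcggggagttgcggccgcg

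The 3 expressed genes had no TGCCGC in these windows. Nap1l5 had 2 matches, and Nnat and Plagl1 had 1 each. This contrast holds for the 6 printed genes only. Across the genes counted below, most of those without reads had no match, while the expressed Commd1 had 1. Promoters were counted for 29 of the 37 genes, 43 promoters in all. Chromosome 18 was left out of this count, and with it Impact, which reached 1 FPKM. The match occurred in 1 of 7 genes that reached 1 FPKM (Commd1), in 3 of 8 with reads but under 1 FPKM and in 6 of 14 without reads, where a gene with several promoters counted once. Among all 32851 RefSeq promoters of this length, 11.6% held the match, and among the 43 promoters here 25.6% did. By promoter, the share was 9.09% of 11 at genes that reached 1 FPKM. It was 36.4% of 11 at genes with reads but under 1 FPKM and 28.6% of 21 at genes without reads. Mest entered with 2 nearly identical windows that both held the match. The share by gene over all genes was not counted, so the counts by gene have no background here. A match in these letters does not show binding, and no match says only that the letters are not in this window. The number of CpG dinucleotides ran from 2 in Slc22a18 to 26 in Plagl1 among the printed promoters. Its median was 14 over the 43 promoters and 7 over all RefSeq promoters.

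Most imprinted genes were silent in both libraries. Of the 37, 20 (54.1%) had 0 reads in each library, 9 had some reads but stayed under 1 FPKM, and 8 (21.6%) reached 1 FPKM in at least 1 library. For comparison, 37.6% of the 22046 protein-coding loci had no read in either library and 42.5% reached 1 FPKM. The 37 genes include noncoding ones, and over all 54680 loci of any kind these shares were 65.4% and 19.5%. Of the genes listed as paternally expressed, 14 of 21 (66.7%) had no reads, and of those listed as maternally expressed, 6 of 15 (40%). The maternal list holds genes such as Blcap and Ube3a, whose imprinting is known from the brain or from neurons. The difference between these shares was not tested, and which copy is read in CT26 cells was not measured. The genes of the paternal list that reached 1 FPKM were 2, Impact and Zrsr1, against 5 of the maternal list (Blcap, Commd1, Igf2r, Slc22a18 and Tssc4). Gnas, whose allele depends on the promoter, also reached it.

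**Figure D1:**
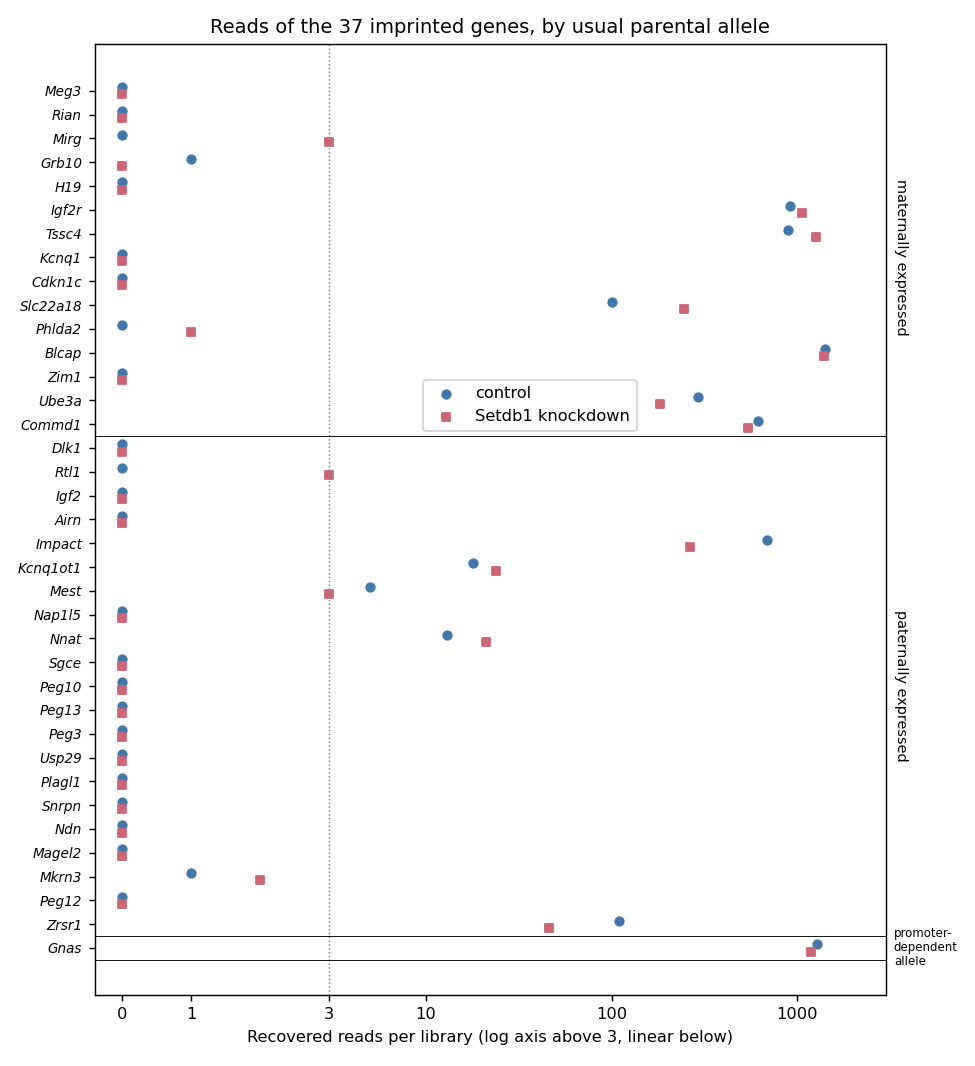
Recovered reads of all 37 imprinted genes in control cells (circles) and the Setdb1 knockdown library (squares). The axis is linear up to 3 reads and logarithmic above, and the dotted line stands at 3 reads. The genes are grouped by the parental copy under which they were listed, which for some holds only in the brain. Most of the paternally expressed genes lie at 0 in both libraries.

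Several genes that act on growth had no reads, while others, such as Igf2r, did. Igf2 encodes a fetal growth factor and H19 the noncoding RNA that shares its enhancers, and both had 0 reads in both libraries. A count of 0 allows up to 3 reads, which is 0.0651 FPKM for H19. Of the exonic bases of Igf2, 64.5% are shared with the read-through gene Gm49394 and the antisense gene Igf2os, which were also listed at 0. Whether reads over bases shared by several genes were counted is not given in the sources used here, so the 0 of Igf2 speaks only for its unshared bases. Cdkn1c, an inhibitor of cyclin-dependent kinases, had 0 reads. It shares 30.7% of its exonic bases with Gm44732, also listed at 0, so the same limit holds for Cdkn1c. Plagl1, a zinc finger gene linked to growth arrest, had 0 reads as well. Peg3, a zinc finger gene of maternal behaviour and growth, had 0 reads, as did its neighbours Usp29 (a ubiquitin protease) and Zim1 (a zinc finger gene). In the window from 100 kb before to 100 kb after these 3 genes, none of 18 loci had a read in either library. Peg10, a retrotransposon-derived gene needed in the placenta, and Sgce, a sarcoglycan gene that is read from the same region, had 0 reads. Over all 20 silent genes the limit ran from 0.00878 FPKM (Rian) to 0.0869 FPKM (Nap1l5), depending on the length of the gene model and taking reads over shared bases as counted.

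The Dlk1 to Meg3 region on chromosome 12 was almost empty. Dlk1, a membrane protein related to the Delta ligands of Notch, had 0 reads, and the noncoding RNAs Meg3 and Rian also had 0 in both libraries. Rtl1, a retrotransposon-derived gene that acts in placental vessels, had 0 reads in control cells and 3 in knockdown cells. Mirg, a noncoding host of microRNAs, had 0 and 3 reads too. Both stayed at the limit of 3 reads, so no fold is given. Over the region with 100 kb on each side, 105 loci, 66 of them microRNA loci and 23 snoRNA loci, had together 0 reads in control cells and 6 in knockdown cells. These 6 reads are those of Rtl1 and Mirg. Reads of a standard RNA library over microRNA and snoRNA loci are not a measure of the mature small RNAs.

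The Snrpn to Ube3a region on chromosome 7, which corresponds to the human Prader-Willi and Angelman region, had reads in few of its genes. Snrpn (a spliceosome protein), Ndn and Magel2 (both of the MAGE family) and Peg12 (a GSK3-binding protein of the Frat family) had 0 reads in both libraries. Mkrn3, a ring finger protein that restrains puberty, had 1 and 2 reads. Of the exonic bases of Snrpn, 34.1% are shared with other annotated genes, Snurf and Gm38393 among them, and these were also listed at 0, so the same limit holds. The 210 snoRNA loci and 20 microRNA loci of the region had no reads. Ube3a, the ubiquitin ligase of Angelman syndrome that is imprinted in neurons and read from both copies elsewhere, was the protein-coding gene with the most reads there. It had 291 reads (0.753 FPKM) in control cells and 183 reads (0.474 FPKM) in knockdown cells, a read ratio of 0.608 with a counting interval of 0.503 to 0.734. Its gene model in the table is 20626 bases long, while its longest annotated coding transcript has 9856 bases, so the FPKM is low for its reads. Of the exonic bases of Ube3a, 27.3% are shared with other annotated genes, the noncoding antisense gene Snhg14 among them. Snhg14 had 0 reads. Whether reads over shared bases were counted is not given, which limits both the reads of Ube3a and the 0 of Snhg14. Among the other loci of the region, 2 processed pseudogenes reached 1 FPKM, Gm7367 with 406 and 372 reads and Gm10297 with 83 and 75 reads. Settings for multi-mapping reads are not given, so reads of similar genes elsewhere cannot be told apart from transcription of these loci.

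Counting intervals here are 95% intervals (exact binomial, Clopper-Pearson) for knockdown over control reads, with each count taken relative to the total of its library. They cover counting error only, since reads multiplied by PCR are not independent molecules, and they hold no spread between cultures. Among all 10671 loci at 1 FPKM or more the interval excluded 1 for 75.8% (35.2% above 1 and 40.6% below), so an interval away from 1 was common in these libraries. A 2-fold difference on the log2(FPKM + 1) scale was found for 11.7% of those loci, with 6.81% higher and 4.85% lower in knockdown cells. Of the 8 imprinted genes at this level, 1 was 2-fold higher or more (Slc22a18) and 1 was 2-fold lower or more (Impact). The interval excluded 1 for 7 of the 8, with 3 higher and 4 lower, and included 1 for Blcap. Their median log2 ratio was -0.06, and that of all loci was -0.00039; over all members with reads, without the filter, it turned to 0.0049.

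**Figure D2:**
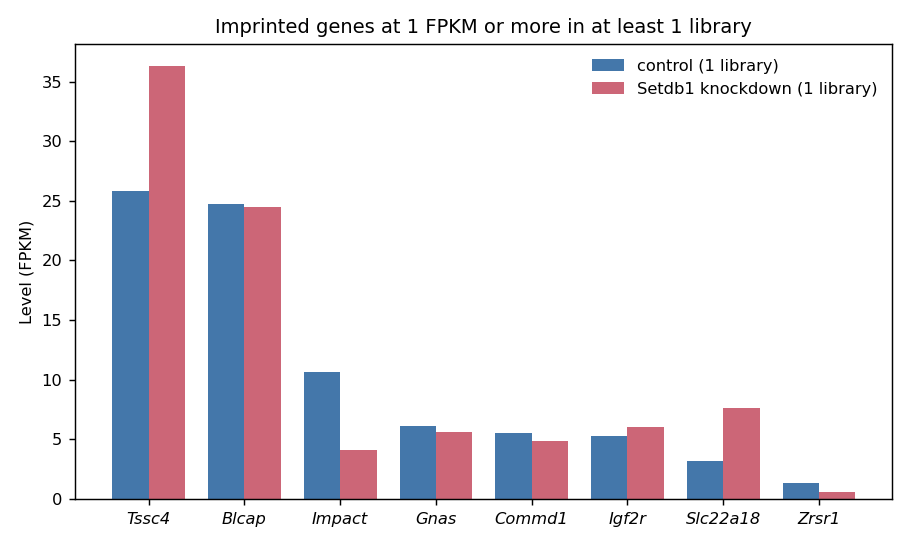
FPKM of the 8 imprinted genes that reached 1 FPKM in at least 1 library; each bar is 1 library (control and Setdb1 knockdown), so there are no error bars. Impact and Zrsr1 are lower and Slc22a18 and Tssc4 higher in knockdown cells.

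Impact had the lowest ratio. It encodes an inhibitor of the kinase GCN2, which senses shortage of amino acids, and in the mouse it is read from the paternal copy in most tissues. The gene (ENSMUSG00000024423) lies on the plus strand of chromosome 18, from 12972252 to 12992948 in GRCm38. Control cells had 685 reads (10.7 FPKM) and knockdown cells 265 (4.12 FPKM). This is a read ratio of 0.374 (0.323 to 0.432) and a log2 ratio of -1.19. In bulk RNA, fewer cells that express a gene and less RNA per cell cannot be told apart. Its exons are shared with no other annotated gene. The deposited gene model has 3432 bases against 5129 exonic bases in GENCODE M21, the single difference in length among the 37 genes.

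Zrsr1 was the other paternally expressed gene at this level. It is an intronless copy of the splicing factor gene Zrsr2, and it sits within Commd1 on chromosome 11, from 22972005 to 22976496 on the plus strand. It had 109 reads (1.30 FPKM) in control cells and 46 reads (0.547 FPKM) in knockdown cells, and the read ratio was 0.408 (0.283 to 0.581). It passed the 1 FPKM limit only through the control library. The log2 ratio was -0.57 with a pseudocount of 1 and -1.11 with a pseudocount of 0.1, since the level is low against the pseudocount. Commd1, which encodes a regulator of copper handling and of NF-kappaB, encloses it from 22896136 to 22982382 on the minus strand. Commd1 had 614 and 539 reads (5.52 and 4.85 FPKM), a read ratio of 0.849 (0.755 to 0.955). The genes share exonic bases, 9.17% of those of Zrsr1 and 11.9% of those of Commd1, and the use of strand in counting is not given in the sources used here. Zrsr2, on chromosome X, had 379 and 390 reads, a ratio of 0.995 (0.862 to 1.15).

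Nnat and Blcap are also a nested pair, on chromosome 2. Nnat, a small membrane protein of developing neurons that is read from the paternal copy, lies in an intron of Blcap, from 157560078 to 157562522 on the plus strand. It had 13 reads (0.379 FPKM) in control cells and 21 reads (0.613 FPKM) in knockdown cells. The read ratio was 1.56 with an interval from 0.747 to 3.40, so a difference was not detectable at this depth. As the use of strand in counting is not given, reads of Nnat and unspliced reads of Blcap cannot be told apart. Blcap, a gene named for loss in bladder cancer whose imprinting is known from the brain, runs from 157556362 to 157571274 on the minus strand. Its reads were 1409 and 1398 (24.7 and 24.5 FPKM), a ratio of 0.960 (0.891 to 1.03). Blcap was thus among the most highly expressed of the 37 genes and had the smallest difference of the 8 at 1 FPKM or more.

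Slc22a18 had the highest ratio. It encodes a membrane transporter of the organic cation family and is read from the maternal copy. The gene (ENSMUSG00000000154) lies on the plus strand of chromosome 7, from 143473736 to 143499334. It had 100 reads (3.14 FPKM) in control cells and 244 reads (7.67 FPKM) in knockdown cells. Its read ratio was thus 2.36 (1.86 to 3.01), or 1.07 as a log2 ratio of (FPKM + 1). The gene shares no exonic bases with another annotated gene.

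Tssc4, a spliceosome-associated factor of the same cluster, was also higher in knockdown cells. It lies from 143069249 to 143071093 on the plus strand and had 892 reads (25.8 FPKM) against 1256 reads (36.3 FPKM), which gives a log2 ratio of 0.48 and a ratio of reads of 1.36 (1.25 to 1.49). It shares 11.9% of its exonic bases with Trpm5, which had 3 and 1 reads. Between Tssc4 and Slc22a18 lie Kcnq1, Kcnq1ot1 and Cdkn1c. Kcnq1, a potassium channel gene, had 0 reads in both libraries. Kcnq1ot1, the paternal noncoding RNA whose transcription silences the neighbouring genes on that copy, had 18 and 24 reads over a gene model of 93092 bases (0.0103 and 0.0138 FPKM), with a ratio of 1.29 (0.671 to 2.52). Phlda2, a brake on placental growth that lies just beyond Slc22a18, had 0 and 1 reads.

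Other loci of this cluster differed in both directions. The tetraspanin gene Cd81 went from 5061 to 8032 reads, a ratio of 1.54 (1.48 to 1.59), and the histone chaperone gene Nap1l4 from 1948 to 2764 reads, a ratio of 1.37 (1.29 to 1.46). The tetraspanin gene Tspan32 was lower, from 232 to 154 reads with a ratio of 0.642 (0.520 to 0.791). Cars, the cysteinyl-tRNA synthetase gene beyond Nap1l4, was also lower, with 5970 and 4806 reads and a ratio of 0.779 (0.749 to 0.809). Within 100 kb of the cluster, 14 of 31 loci had reads and 7 reached 1 FPKM. These neighbours were chosen by position after their values could be seen.

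**Figure D3:**
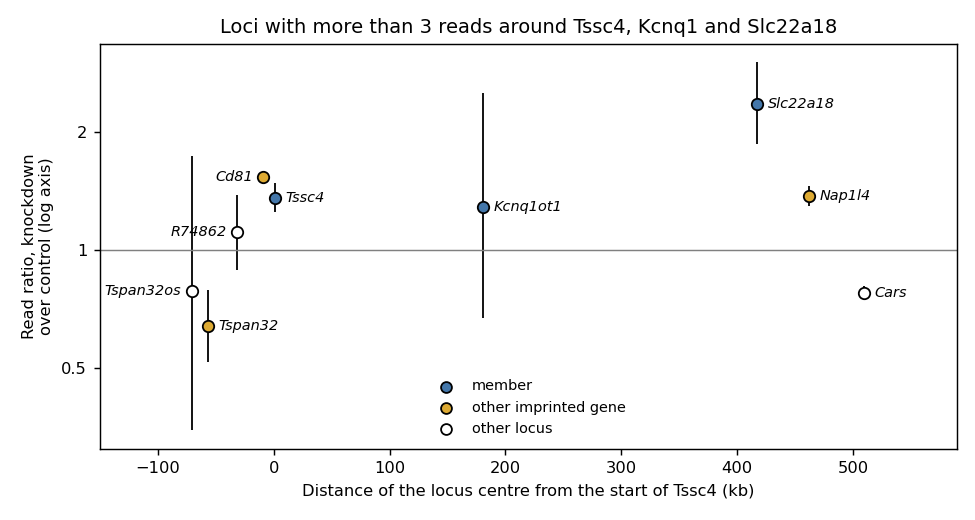
Read ratio, knockdown over control, of loci with more than 3 reads in at least 1 library around the Kcnq1 cluster, plotted by distance from the start of Tssc4; bars are 95% exact counting intervals and the ratio axis is logarithmic. Slc22a18 has the highest ratio (2.36) and Tspan32 the lowest (0.642).

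Igf2r was slightly higher and Gnas slightly lower in knockdown cells, both by less than 2-fold. Igf2r, the receptor that takes IGF2 to the lysosome and is read from the maternal copy, had 917 reads (5.26 FPKM) and 1056 reads (6.06 FPKM), a read ratio of 1.11 (1.02 to 1.22). Airn, the paternal antisense RNA that overlaps it and silences it on that copy, had 0 reads in both libraries, which allows up to 0.0445 FPKM. Gnas, which encodes the stimulatory G protein alpha subunit and several imprinted alternative products, had 1280 reads (6.11 FPKM) and 1180 reads (5.63 FPKM), a ratio of 0.892 (0.823 to 0.966). Gnas is a single model of 11186 bases here, so its imprinted and unimprinted promoters could not be told apart, and its antisense gene Nespas had 0 reads.

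The remaining genes with reads were near the limit of detection. Mest, a gene of the alpha/beta hydrolase fold read from the paternal copy, had 5 and 3 reads, a ratio of 0.580 with an interval from 0.0901 to 2.98. It shares 23.1% of its exonic bases with Copg2, which was expressed at 1113 and 836 reads. Grb10, an adaptor that restrains insulin and IGF signalling, had 1 and 0 reads. The 5 genes with at least 1 read but no more than 3 in either library (Grb10, Mirg, Mkrn3, Phlda2 and Rtl1) had 2 reads in control cells and 9 in knockdown cells in all. Peg13, a noncoding RNA in an intron of Trappc9, had 0 reads, while Trappc9 had 1482 and 1414 reads (ratio 0.923, 0.857 to 0.993). Nap1l5, an intronless gene within Herc3, had 0 reads, and Herc3 itself had 2 and 9 reads.

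**Figure D4:**
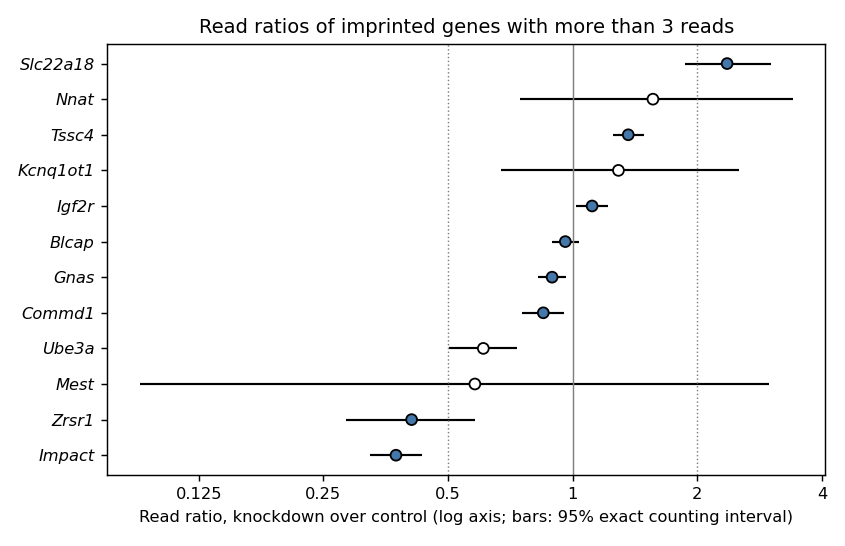
Read ratio, knockdown over control, of the imprinted genes with more than 3 reads in at least 1 library, on a logarithmic axis with 95% exact counting intervals; filled points reached 1 FPKM and open points did not, and dotted lines stand at ratios of 0.5 and 2. The intervals of Nnat, Kcnq1ot1, Blcap and Mest include 1.

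Other genes of the imprinting system were described from lists outside the 37. Of 50 other mouse imprinted genes, 49 were found, 22 had no reads in either library and 16 reached 1 FPKM. Of these 16, 0 were at least 2-fold higher and 1 was at least 2-fold lower on the log2(FPKM + 1) scale. Among all loci 11.7% passed in either direction. The median log2 ratio was -0.07, and it turned to 0.30 with a filter at 5 FPKM. The lower gene was Casd1, a sialic acid acetyltransferase gene beside Sgce and Peg10. It had 331 reads (4.38 FPKM) in control cells and 98 reads (1.30 FPKM) in knockdown cells. This is a ratio of reads of 0.286 (0.226 to 0.360) and -1.23 on the log2 scale. Jade1 went from 394 to 198 reads, a read ratio of 0.486 (0.408 to 0.578) that the pseudocount brings to a log2 ratio of -0.63. The highest ratio belonged to Dhcr7, which encodes the last enzyme of cholesterol synthesis and lies distal to the Kcnq1 cluster, with 719 and 1422 reads, which is a ratio of reads of 1.91 (1.75 to 2.10) and 0.89 on the log2 scale.

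Of 30 factors that set or keep imprints, 18 reached 1 FPKM, 8 had reads but stayed under it and 4 had no reads. On the log2(FPKM + 1) scale 0 of the 18 differed by 2-fold, against 11.7% of all loci, and the median log2 ratio was 0.05. The de novo DNA methyltransferase Dnmt3a, close to the lower limit, went from 151 to 331 reads (0.484 to 1.06 FPKM), a read ratio of 2.12 (1.74 to 2.59) that the pseudocount brings to a log2 ratio of 0.47. Zfp57 was at 8.04 and 6.32 FPKM (570 and 448 reads) and Trim28 at 180 and 194 FPKM. Zfp445, close to the lower limit, was at 1.28 and 0.764 FPKM (177 and 106 reads), a read ratio of 0.579 (0.451 to 0.741). The lowest log2 ratio was that of Ctcf, the insulator protein that binds the unmethylated H19 control region, at -0.62, from 12.1 to 7.52 FPKM. The highest was that of Ehmt2, a methyltransferase of the same histone residue, at 0.52, from 94.4 to 135 FPKM. The maintenance DNA methyltransferase Dnmt1 was at 32.0 and 34.1 FPKM, and its partner Uhrf1 at 41.9 and 57.3 FPKM. Dppa3, Ctcfl, Nlrp5 and Zfp42, genes of germ cells and early embryos, had 0 reads. Tet1, an enzyme that oxidises methylated cytosine, had 1 and 0 reads, and Dnmt3l, a cofactor of DNA methylation in germ cells, had 11 and 1. Dnmt1, Uhrf1, Trim28, Zfp57, Zfp445, Dnmt3a, Dnmt3l and Tet1 were singled out after their values could be seen.

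The IGF pathway had receptors above 1 FPKM, while its ligand genes had few or no reads. Igf1 had 2 and 0 reads, and Igf2 had none, which speaks only for its unshared bases. Igf1r, the receptor that passes on the growth signal of both ligands, was at 4.53 and 5.42 FPKM. Of 16 pathway genes, 9 reached 1 FPKM, with 1 past 2-fold in each direction, against 11.7% of all loci in either direction. The median log2 ratio was -0.27, and -0.0453 with no filter on low values or -0.0443 at 5 FPKM. The higher gene was Igfbp6, a binding protein that prefers IGF2, from 164 to 395 FPKM, which is a ratio of reads of 2.33 (2.24 to 2.42) and 1.26 on the log2 scale. The lower gene was Htra1, a secreted protease that can cut IGF-binding proteins, from 11.3 to 2.11 FPKM, which is a ratio of reads of 0.181 (0.147 to 0.222) and -1.98 on the log2 scale.

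**Figure D5:**
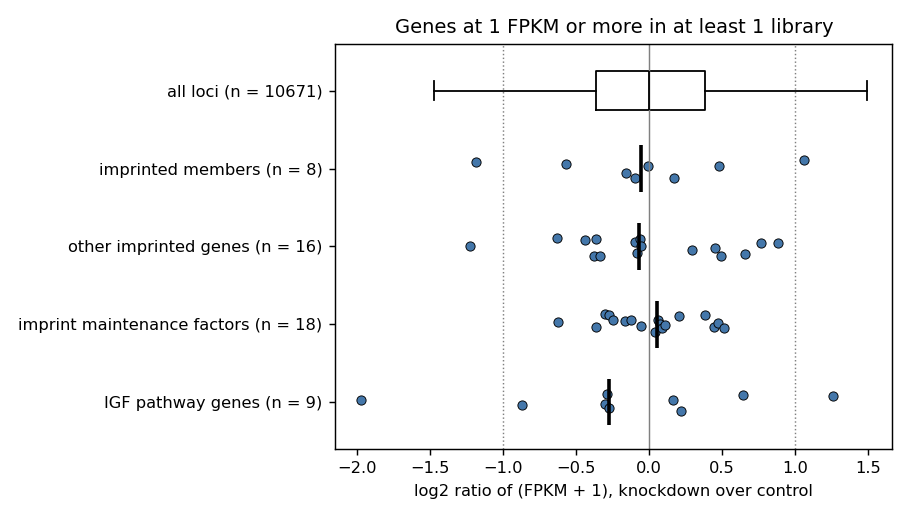
log2 ratio of (FPKM + 1), knockdown over control, for all loci at 1 FPKM or more (box: median and quartiles, whiskers to the last value within 1.5 times the interquartile range) and for the genes of each list (points, with a bar at the median); dotted lines stand at a 2-fold difference. Impact and Slc22a18 are the imprinted genes of the 37 beyond those lines.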

How the data were processed

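RNA sequencing of 2 libraries was analysed, 1 per group, grouped by genotype and title in the labels. The authors deposited FPKM values and gene model lengths for 54680 loci. Per the submitters' processing notes, CASAVA, HISAT2, featureCounts 1.5.0-p3 and GRCm38 were used; settings for strand and multi-mapping reads are not given in the sources used here. Reads were recovered as FPKM times length over the smallest step, whole to a tolerance of 1e-06. One common depth, 18731117 reads, had served as divisor for each library in place of its own total, so FPKM ratios carry the 1.03 ratio of the totals. log2 ratios used a pseudocount of 1, and loci needed 1 FPKM in at least 1 library. Gene overlaps came from GENCODE M21, whose exonic lengths equalled the deposited lengths for 36 of the 37 genes. Genes named were Setdb1, all 37 members, the highest, lowest and 2-fold members of each other list, and overlapping partners; neighbours and further genes were chosen after their values were seen. The members and lists were chosen with earlier results of these data known. Calculations were tested on simulated data and run with scipy 1.17.1, pandas 2.3.3, numpy 2.4.6 and matplotlib 3.10.9 in Python 3.11.15.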

Additional observations from a re-analysis of the deposited data

How the results depend on the processing

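Alternatives were a pseudocount of 0.1, other filters, scalings, thresholds, call rules and means; scaling by own read totals and a filter on the mean FPKM were chosen after seeing the data. Among 8 imprinted genes none changed direction, and Zrsr1 alone moved beyond counting error, to -1.11 with a pseudocount of 0.1, where 3 imprinted genes passed 2-fold in place of 2. The scaling that moved all loci most, the upper quartile, put their median log2 ratio at -0.05. With a pseudocount of 0.1, the Setdb1 log2 ratio was -2.04 and 2004 loci passed 2-fold (1134 higher, 870 lower). With no low-value filter, the median log2 ratio was 0.0049 for all imprinted genes with reads, which reversed it, 0.0049 for paternally expressed genes, also reversed, 0.0313 for maternally expressed genes and -0.0453 for IGF pathway genes, because members with few reads entered. At 5 FPKM, other imprinted genes reversed to 0.30 with 0 past 2-fold, and IGF pathway genes were at -0.0443. The mean for maternally expressed genes was 0.31 in place of a median of 0.17. That median rests on 5 genes, and the paternal median of -0.88 on 2. At 1.5-fold, 3327 loci, 5 other imprinted genes, 4 IGF pathway genes and 1 maintenance factor passed. At 4-fold on the log2(FPKM + 1) scale, 172 loci and 0 imprinted genes, other imprinted genes or IGF pathway genes passed, with Htra1 just short at -1.98. The counting interval excluded 1 for 8090 loci (3755 higher, 4335 lower), 7 imprinted genes, 13 other imprinted genes, 13 maintenance factors and 9 IGF pathway genes. For the other shifts the cause was not tested. No paired analysis was possible because there was a single library per group, so none could be left out either. Depth limits the silent genes to at most 3 reads each.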
